A study of Homo sapiens with 6 samples.

Results

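The 35 genes described here are those of the integrins and the core of the focal adhesion, and they comprised 12 integrin alpha subunits, 7 integrin beta subunits, 14 proteins that sit on the cytoplasmic side of the receptors, the tetraspanin CD151 and the collagen receptor DDR1. They were chosen by gene name. Where a name has several Ensembl identifiers the one with the highest mean FPKM was to be used, but each of the 35 names had 1 identifier. FPKM stands for fragments per kilobase of transcript, scaled to sequencing depth. The whole table held 58825 identifiers under 48868 names. RNA-seq was performed on 6 samples of PANC-1, an established human cell line from a pancreatic carcinoma. Of these, 3 were treated with 40 μM maslinic acid (MA), a triterpene acid found in olives, for 24 h (MA PANC-1 1 to 3), and 3 were labelled untreated, at 0 μM (PANC-1 1 to 3). The study's methods name dimethyl sulfoxide as the vehicle of its control cultures, whereas the labels of the control samples name no vehicle. All groups were the same line, so the data describe 1 cell line at 1 dose and 1 time. The labels do not say that the replicates were separate cultures, although the study's methods call them biological replicates, and p-values measure the spread between these samples, which may be partly technical.

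Integrins are receptors of the cell surface, each a pair of an alpha and a beta subunit, that bind proteins of the extracellular matrix or of neighbouring cells. The alpha subunit largely sets the ligand, so that some pairs bind collagen, others laminin, and others proteins such as fibronectin and vitronectin through the short motif RGD. Inside the cell, talin and kindlin bind the beta tail and switch the receptor on, and vinculin, paxillin, focal adhesion kinase, integrin-linked kinase and their partners connect it to actin and to signalling. Carcinoma cells use these contacts to attach, spread and move.

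The sum of estimated counts was 56978375, 63984133 and 58181114 for MA PANC-1 1 to 3, against 70275355, 65607669 and 59422939 for PANC-1 1 to 3. In every library this sum was larger than the number of valid reads that the study reported. Estimated counts are therefore not numbers of reads, and their sum is not the sequencing depth. MA PANC-1 2 stood apart from the other libraries. In a principal component analysis of log2 CPM (counts scaled to library size), the first component held 26.4% of the variance, and on it MA PANC-1 2 lay at -73.6, against -29.5 and 16.2 for the other MA samples and 18.1 to 44.9 for the untreated samples. The count-weighted GC content of the genes was 52.2% in this library and between 50.9% and 51.4% in the others. The genes described here moved with it. Of the 14 tested members with a GC content of at least 53.1%, the median among the tested members, 13 had more CPM in MA PANC-1 2 than the mean of MA PANC-1 1 and 3, whereas 7 of the 14 members below that GC content did. Over all genes the corresponding shares were 79.7% and 31.4%. Many results that rest on this library are therefore also given without it. Many are also given with a fit in which the trend with GC content was removed from each library. That fit was chosen after seeing the data.

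The epithelial keratins KRT8 (141 to 225 FPKM) and KRT18 (278 to 338 FPKM) were high in all 6 samples, as was the mesenchymal filament VIM (521 to 754 FPKM). Other ductal and epithelial markers were low, with KRT19 at most 0.109 FPKM, EPCAM at most 0.132 FPKM and CDH1 from 0.778 to 1.28 FPKM. The defining markers of other cells that carry their own integrins were at or near 0, and the rest of those lists were low. The leukocyte gene CD3E and the platelet genes PPBP and GP9 were listed at 0.0001 in every sample, the value the table gives to a gene without reads, PTPRC reached 0.0120 FPKM, and the endothelial genes PECAM1, VWF and CDH5 reached at most 0.0275 FPKM. Of the fibroblast genes, DCN, PDGFRA and FAP reached at most 0.0259 FPKM, while COL1A1 was between 2.64 and 5.96 FPKM and LUM between 0.351 and 0.616 FPKM. Elsewhere in the endothelial, leukocyte and platelet lists the highest values were 0.148 FPKM for the endothelial gene KDR, 0.101 and 0.0893 FPKM for the leukocyte genes CD14 and LYZ, and 0.0814 FPKM for the platelet gene PF4. Among the tested markers 1 passed the unadjusted p with all 6 samples, the neuronal microtubule protein MAP2, at 0.288 FPKM in PANC-1 and 0.533 FPKM in MA PANC-1 on average (edgeR, unadjusted p = 0.0112). Of the other neural markers, SYP was at 1.86 to 2.02 FPKM with a log2 fold change of -0.00088 (edgeR, unadjusted p = 0.995), and CHGA was at most 0.0163 FPKM. Without MA PANC-1 2, KRT8 (log2 fold change -0.39), KRT18 (-0.22), KRT7 (-0.46) and VIM (-0.31) were also lower after MA (edgeR, unadjusted p = 0.0236, 0.0138, 0.0395 and 0.0352), the direction of most members, and KRT7 was lower with the trend with GC content removed (edgeR, unadjusted p = 0.0297). Their part in the results on the members was not tested.

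Of the 35 members, 28 reached a mean of 0.1 FPKM across all samples and were tested together with all 17774 genes that passed this filter, by edgeR's quasi-likelihood test on the counts. The other 7 were ITGA4, ITGA8, ITGA9, ITGA11, ITGB6, ITGB7 and TNS1. The screening criteria of the study, a 2-fold change in either direction with an unadjusted p under 0.05, were met by 2 of the 28 tested members, ITGA2 and ITGA10, both down-regulated after MA. Among all genes tested, 1.25% met these criteria in that direction. No member met them as an up-regulated gene, where the share of all genes was 0.675%, and 1 member was higher at the unadjusted p alone. At an unadjusted p under 0.05, 6 members were lower after MA (ITGA1, ITGA2, ITGA10, ITGB1, ITGB8 and FERMT1), which is 21.4% of those tested against 5.86% of all genes. In the other direction 1 member was higher (PARVA), 3.57% against 5.37% of all genes. No member kept an adjusted p under 0.05 in edgeR with Benjamini-Hochberg adjustment, as 0.0394% of all genes did. In limma on log2(FPKM + 0.1) 0 members did, against 0.045% of all genes, and in DESeq2 2 did, ITGA2 and FERMT1, which is 7.14% of the tested members against 1.48% of all genes. The FPKM values of the groups did not overlap in 9 members that were lower after MA, 32.1% against 11.1% of all genes, and in 1 member that was higher, against 8.79% of all genes. On the scale of CPM, 7 members were lower without overlap, 25% against 10.2% of all genes.

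The median log2 fold change of the 28 members was -0.15, against -0.0017 for all genes tested. Of the 28 values 22 were below 0, against 8929 of the 17774 values over all genes. All 8 tested alpha subunits and all 5 tested beta subunits had a value below 0, with medians of -0.36 and -0.26, although ITGA5 and ITGB5 crossed to 0.04 and 0.0014 without MA PANC-1 3. The 13 tested genes of the focal adhesion core had a median of -0.08. The median of the 28 members moved to -0.27 without MA PANC-1 2 and to -0.07 without MA PANC-1 3.

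**Figure D1:**
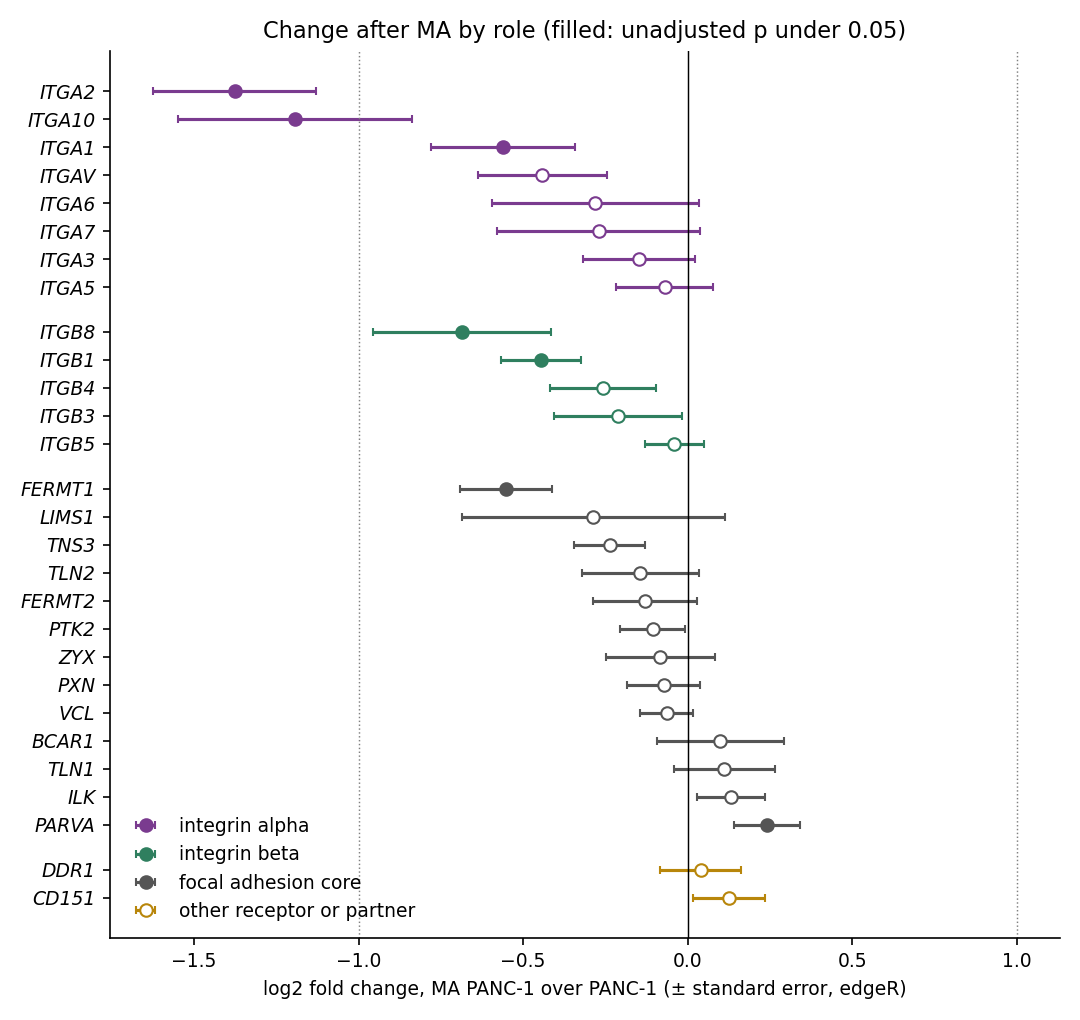
Log2 fold change of the 28 tested members after MA, with the standard error from edgeR, ordered by value within each role; filled points have an unadjusted p under 0.05 and the dotted lines mark a fold change of 2. ITGA2 and ITGA10 lie beyond the dotted line on the left, and PARVA is the filled point on the right.

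ITGA2, the alpha subunit of the collagen receptor alpha2beta1, had the most negative fold change among the members with all samples. ITGA10 was more negative without MA PANC-1 2 (-1.45 against -1.37), without MA PANC-1 3 (-1.24 against -1.14) and with the trend with GC content removed (-1.21 against -1.13, and -1.26 against -1.22 with the replicate block). ITGA2 lies on chromosome 5 (ENSG00000164171, GRCh38, 52989340 to 53094779, plus strand). The level of ITGA2 was 21.7, 21.7 and 21.2 FPKM in PANC-1 1, 2 and 3, and 11.3, 7.57 and 5.38 FPKM in MA PANC-1 1, 2 and 3. The untreated samples were nearly equal, every MA sample was lower, and the MA samples differed from each other by more than the untreated samples did. The means were 21.5 ± 0.273 FPKM (SD, n = 3) in PANC-1 and 8.09 ± 3.00 FPKM (SD, n = 3) in MA PANC-1. The log2 fold change was -1.38 with a standard error of 0.25 (edgeR, unadjusted p = 0.000763, adjusted p = 0.222). In DESeq2 the adjusted p was 9.16e-06. The unadjusted p stayed under 0.05 in all 19 alternatives, over which the adjusted p ran from 9.16e-06 to 0.586 and the log2 fold change from -1.67 to -1.13, and without MA PANC-1 2 the log2 fold change was -1.37. An exact two-sided permutation test on the FPKM gives p = 0.1, the smallest that 3 samples against 3 allow, for ITGA2 and for every other member whose groups did not overlap.

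ITGA10, the alpha subunit of the collagen receptor alpha10beta1 of cartilage, was the other down-regulated gene, at a low level. It lies on chromosome 1 (ENSG00000143127, 145891208 to 145910111, minus strand). Its level was 0.295, 0.216 and 0.261 FPKM in PANC-1 1, 2 and 3, and 0.0656, 0.140 and 0.121 FPKM in MA PANC-1 1, 2 and 3. The groups did not overlap, but they rest on low estimated counts, from 29 in MA PANC-1 1 to 156 in PANC-1 1. On the log2 scale the difference was -1.19 with a standard error of 0.36 (edgeR, unadjusted p = 0.0117, adjusted p = 0.388). Without MA PANC-1 1 it was -0.93, so that the fold change no longer reached 2. With limma on log2(FPKM + 0.1) it was -0.78, since the pseudocount is close to the values themselves.

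ITGA1, the alpha subunit of the collagen receptor alpha1beta1, was also lower at the unadjusted p. It lies upstream of ITGA2 on the same strand (ENSG00000213949, chromosome 5, 52787896 to 52959210), and its annotated end is 30130 bases before the start of ITGA2. Its level was 0.568, 0.534 and 0.686 FPKM in PANC-1 1, 2 and 3, and 0.423, 0.278 and 0.488 FPKM in MA PANC-1 1, 2 and 3. The groups did not overlap, and MA PANC-1 2 was the lowest sample. Its log2 fold change was -0.56 with a standard error of 0.22 (edgeR, unadjusted p = 0.0365, adjusted p = 0.435). Without MA PANC-1 2 it was -0.39 (edgeR, unadjusted p = 0.0596), and with the trend with GC content removed it was -0.29 (edgeR, unadjusted p = 0.0575). PELO, which encodes a ribosome rescue factor, starts inside ITGA1 on the same strand and had 12.9 FPKM in each group, so that reads of either gene could be assigned to the other. The sum of ITGA1 and the genes that overlap it on its strand had a log2 fold change of -0.05 (edgeR, unadjusted p = 0.592). Since PELO was at 12.9 FPKM and ITGA1 at 0.596 FPKM in PANC-1 on average, this sum cannot resolve a change of ITGA1 alone.

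The neighbours of ITGA2 were measured as well. PELO had a log2 fold change of 0.03 (edgeR, unadjusted p = 0.748). MOCS2, a gene of molybdenum cofactor synthesis on the opposite strand, has its nearer end 900 bases beyond the annotated end of ITGA2 and had a log2 fold change of -0.09 (edgeR, unadjusted p = 0.554). FST, the activin antagonist follistatin, had a log2 fold change of -0.67 (edgeR, unadjusted p = 0.0956). None of the 3 passed the test that ITGA2 passed.

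The promoters of these 3 collagen-binding alpha subunits are shown because the genes were lower together and ITGA1 and ITGA2 are neighbours. RefSeq promoter windows (GRCh38.p14, 250 bases before to 50 after a start) were found for 26 of the 35 members. Each sequence is printed 5′ to 3′ on the strand of its gene and stops before the most upstream annotated start. It is chr5:52787666-52787895 on the plus strand for ITGA1, chr5:52989102-52989325 on the plus strand for ITGA2 and chr1:145910190-145910300 on the minus strand for ITGA10. The annotated start of PELO, at 52787916 on the plus strand, lies close to that of ITGA1 at 52787896. The sequence printed for ITGA1 is therefore also directly upstream of PELO, which had a log2 fold change of 0.03. Capitals mark GGGCGG, the GC box, on either strand.
ITGA1: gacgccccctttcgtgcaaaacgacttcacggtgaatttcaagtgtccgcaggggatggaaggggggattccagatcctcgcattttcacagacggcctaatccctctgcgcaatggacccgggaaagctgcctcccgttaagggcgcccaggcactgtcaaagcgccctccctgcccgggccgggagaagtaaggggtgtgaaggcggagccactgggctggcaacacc
ITGA2: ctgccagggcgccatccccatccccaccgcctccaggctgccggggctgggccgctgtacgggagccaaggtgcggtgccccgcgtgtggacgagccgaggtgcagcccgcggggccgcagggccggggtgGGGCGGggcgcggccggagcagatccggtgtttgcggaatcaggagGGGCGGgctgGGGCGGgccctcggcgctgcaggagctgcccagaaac
ITGA10: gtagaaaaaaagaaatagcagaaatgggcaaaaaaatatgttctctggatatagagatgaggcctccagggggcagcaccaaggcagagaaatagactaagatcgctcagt
The sequence of ITGA2 held 3 GC boxes and a GC content of 77.2%, and those of ITGA1 and ITGA10 held none, with GC contents of 61.7% and 42.3%. Searched on both strands in the full windows, GGGCGG was present in 29 of the 52 windows of the 26 members (55.8%), against 45% of all 35116 windows. GGAATG, the core of the TEAD motif, was present in 15.4% of the members' windows and 14% of all windows. TGANTCA, the AP-1 motif, was present in 7.69% and 7.71%. Among the 5 members that were lower at the unadjusted p and had a window, 0 of 6 windows held TGANTCA, 2 held GGAATG and 3 held GGGCGG. These counts describe letters in short windows and show no binding.

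ITGA11, the remaining collagen-binding alpha subunit and one typical of fibroblasts, was between 0.0001 and 0.0215 FPKM and was not tested. Among the collagen receptors outside the integrins, DDR1, a receptor tyrosine kinase, had 6.82 FPKM in PANC-1 and 6.85 FPKM in MA PANC-1 on average and a log2 fold change of 0.04 (edgeR, unadjusted p = 0.752). Its relative DDR2 had a log2 fold change of -0.17 (edgeR, unadjusted p = 0.693) at 0.128 FPKM in PANC-1. Of the 6 tested genes of the list of collagen receptors, 4 were lower at the unadjusted p (ITGA1, ITGA2, ITGA10 and their common partner ITGB1), 0 were higher, and the median log2 fold change was -0.50, against 5.86% of all genes lower and 5.37% higher. Removing the trend with GC content left 2 of the 6 lower, against 825 of all 17774 genes.

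**Figure D2:**
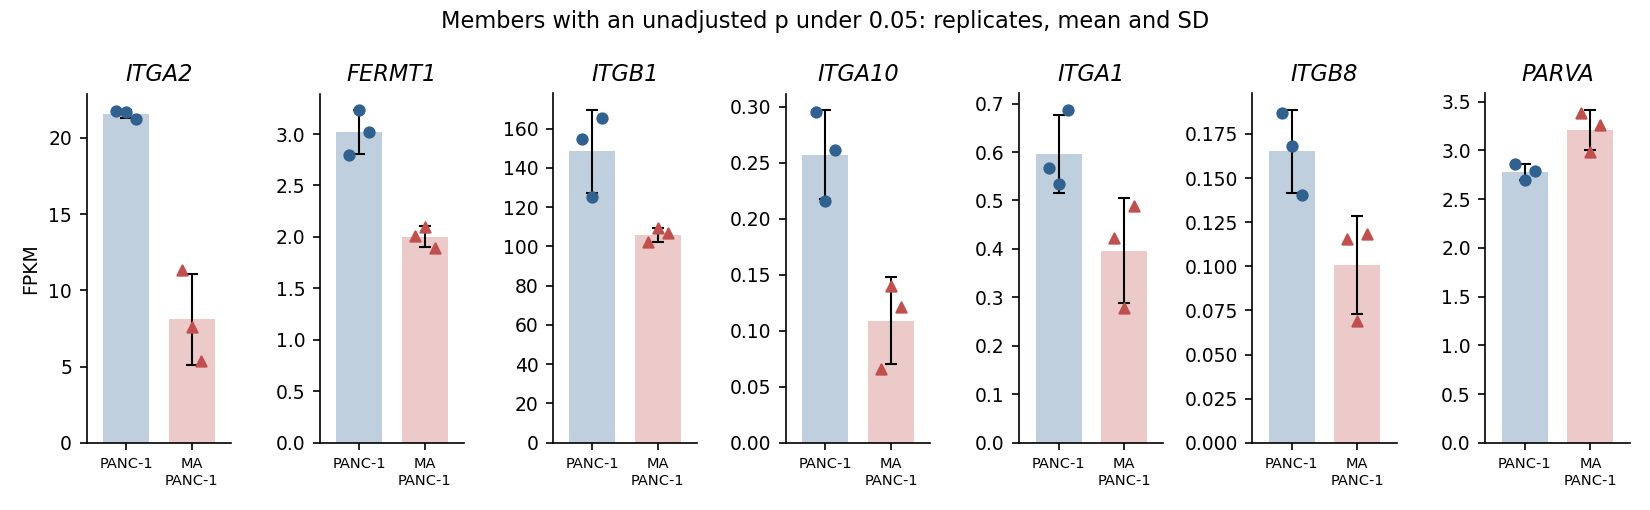
FPKM of the 7 members with an unadjusted p under 0.05 in edgeR, in order of p; points are samples, bars the mean and error bars the SD of 3 samples, and each axis starts at 0. The groups do not overlap in any of the 7, and relative to its mean ITGA2 has the widest spread among the MA samples and the narrowest among the untreated ones.

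The laminin-binding alpha subunits did not pass the test with all samples and no correction. ITGA3, the alpha subunit of the laminin receptor alpha3beta1 of epithelia, was the most abundant alpha subunit, with 122, 155 and 128 FPKM in PANC-1 1, 2 and 3 and 118, 138 and 98.1 FPKM in MA PANC-1 1, 2 and 3. The groups overlapped (log2 fold change -0.15, standard error 0.17, edgeR, unadjusted p = 0.413). Without MA PANC-1 2 the log2 fold change of ITGA3 was -0.32 (edgeR, unadjusted p = 0.0660), and it passed in 1 of 19 alternatives, the removal of the trend with GC content together with the replicate block (-0.24, edgeR, unadjusted p = 0.0485). ITGA6, which pairs with ITGB1 or, in hemidesmosomes, with ITGB4, had 30.5, 29.2 and 47.0 FPKM in PANC-1 1, 2 and 3 and 32.1, 15.7 and 38.7 FPKM in MA PANC-1 1, 2 and 3. The low value was that of MA PANC-1 2, and the log2 fold change was -0.28 with all samples and -0.0075 without this library. With the trend with GC content removed it was -0.10 (edgeR, unadjusted p = 0.655). ITGA7, a laminin receptor of muscle, had 0.245 FPKM in PANC-1 and a log2 fold change of -0.27 (edgeR, unadjusted p = 0.408).

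Among the alpha subunits that bind RGD, none passed the test with all samples. ITGA5, the fibronectin receptor subunit, had 55.8, 60.7 and 61.7 FPKM in PANC-1 1, 2 and 3 and 52.3, 64.6 and 47.9 FPKM in MA PANC-1 1, 2 and 3, with overlapping groups. Its log2 fold change was -0.07 (edgeR, unadjusted p = 0.650), and without MA PANC-1 2 it was -0.25 (edgeR, unadjusted p = 0.0215). With the trend with GC content removed it was -0.14 (edgeR, unadjusted p = 0.277), and ITGA5 passed in 1 of 19 alternatives. ITGAV, which pairs with several beta subunits and binds vitronectin among others, had 16.5, 15.7 and 20.7 FPKM in PANC-1 1, 2 and 3 and 14.5, 8.73 and 15.0 FPKM in MA PANC-1 1, 2 and 3. The groups did not overlap, with MA PANC-1 2 far below the rest, and the log2 fold change of -0.44 missed the threshold (edgeR, unadjusted p = 0.0574). It passed under the replicate block (-0.46, edgeR, unadjusted p = 0.0146), in DESeq2 (unadjusted p = 0.0339), without MA PANC-1 3 (-0.55, edgeR, unadjusted p = 0.0412) and without the filter on low levels (edgeR, unadjusted p = 0.0471). Without MA PANC-1 2 the log2 fold change was -0.26 (edgeR, unadjusted p = 0.0923). With the trend with GC content removed it was -0.13 (edgeR, unadjusted p = 0.246). ITGA8 was listed at 0.0001 in all 6 samples. ITGA4 and ITGA9, which bind fibronectin or other ligands without RGD, were between 0.0001 and 0.0275 FPKM and between 0.00297 and 0.0117 FPKM.

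ITGB1, the beta subunit shared by the collagen-binding alpha subunits and most of the others, was the most abundant beta subunit in the untreated cells and was lower after MA. It lies on chromosome 10 (ENSG00000150093, 32900318 to 33005792, minus strand). Its level was 155, 125 and 165 FPKM in PANC-1 1, 2 and 3, and 102, 109 and 107 FPKM in MA PANC-1 1, 2 and 3. Here the MA samples were close to each other and the untreated samples spread, with PANC-1 2 the nearest to the MA samples. The means were 148 ± 21.0 FPKM (SD, n = 3) and 106 ± 3.52 FPKM (SD, n = 3). The log2 fold change was -0.45 with a standard error of 0.12 (edgeR, unadjusted p = 0.00733, adjusted p = 0.388), and it was -0.51 without MA PANC-1 2. With the trend with GC content removed it was -0.18 (edgeR, unadjusted p = 0.355), so that the call was lost. ITGB1-DT, a divergent transcript whose annotation overlaps that of ITGB1 on the opposite strand, had a mean of 4.07 FPKM and a log2 fold change of -0.47 (edgeR, unadjusted p = 0.0404). Whether reads were counted by strand is not given in the sources used here.

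ITGB8, which pairs with ITGAV and activates latent TGF-beta, was also lower, at a low level. It lies on chromosome 7 (ENSG00000105855, 20330702 to 20415754, plus strand). Its level was 0.187, 0.168 and 0.140 FPKM in PANC-1 1, 2 and 3, and 0.115, 0.0689 and 0.118 FPKM in MA PANC-1 1, 2 and 3. The groups did not overlap and MA PANC-1 2 was the lowest. Its log2 fold change was -0.69 with a standard error of 0.27 (edgeR, unadjusted p = 0.0382, adjusted p = 0.435). Without MA PANC-1 2 it was -0.50 (edgeR, unadjusted p = 0.0810), and with the trend with GC content removed it was -0.50 (edgeR, unadjusted p = 0.0565). The unadjusted p was under 0.05 in 9 of 18 alternatives, and it was 0.0564 under the replicate block and 0.234 with limma on log2(FPKM + 0.1), where the log2 fold change of ITGB8 was -0.41.

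The other beta subunits did not pass the test with all samples and no correction. ITGB5, which pairs with ITGAV, was the second most abundant, with 56.4, 51.6 and 54.1 FPKM in PANC-1 1, 2 and 3 and 50.6, 53.2 and 49.7 FPKM in MA PANC-1 1, 2 and 3. The groups overlapped and the log2 fold change was -0.04 with a standard error of 0.09 (edgeR, unadjusted p = 0.671). ITGB4, the hemidesmosomal partner of ITGA6, had 7.93, 9.89 and 7.72 FPKM in PANC-1 1, 2 and 3 and 6.45, 7.93 and 6.39 FPKM in MA PANC-1 1, 2 and 3. Its log2 fold change was -0.26 (edgeR, unadjusted p = 0.156), and the groups overlapped. Without MA PANC-1 2 it was -0.41 (edgeR, unadjusted p = 0.0234), with the trend with GC content removed -0.36 (edgeR, unadjusted p = 0.0160), and under the replicate block -0.26 (edgeR, unadjusted p = 0.0389), so that ITGB4 passed in these settings. ITGB3, the beta subunit of a vitronectin receptor, had 2.68 FPKM in PANC-1 and a log2 fold change of -0.21 (edgeR, unadjusted p = 0.310). ITGB6, an epithelial partner of ITGAV, was at most 0.00701 FPKM, and ITGB7, a subunit of lymphocytes, was at most 0.0547 FPKM.

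**Figure D3:**
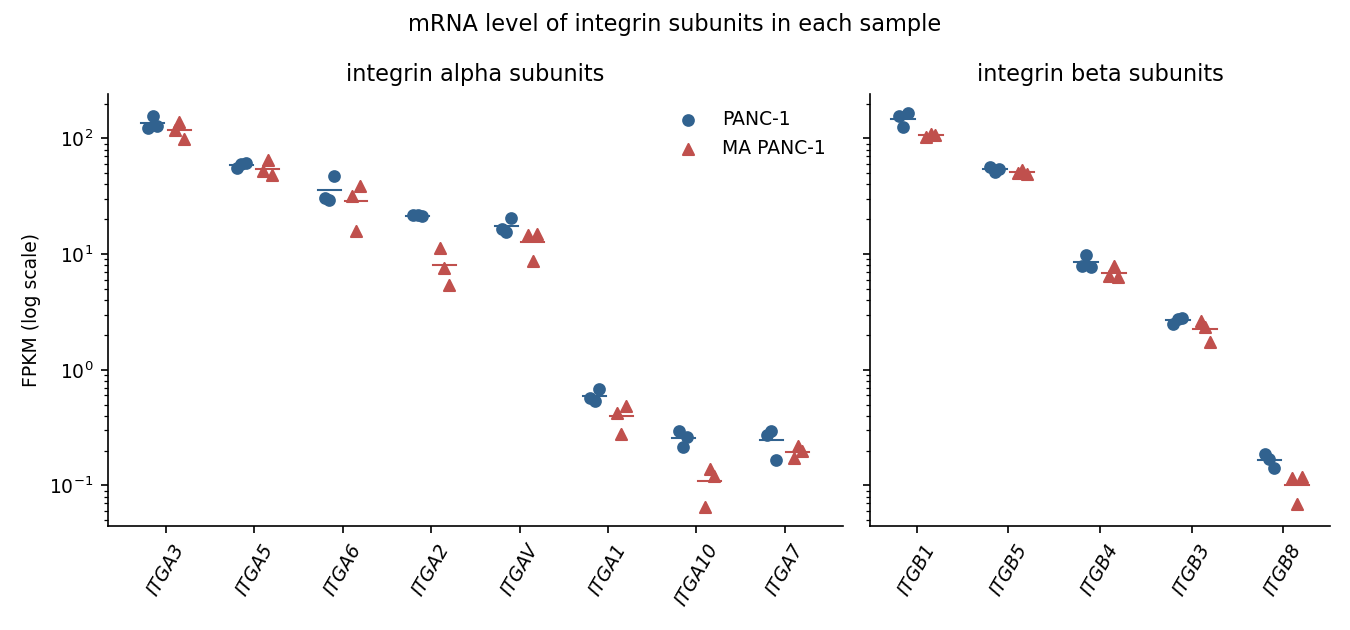
FPKM of the tested integrin subunits in each sample on a log axis, alpha subunits on the left and beta subunits on the right, ordered by their mean in the untreated cells; circles are PANC-1, triangles MA PANC-1 and short lines the group means. The group means run from ITGA3 and ITGB1 above 100 FPKM to ITGA10, ITGA7 and ITGB8 below 0.3 FPKM, and the separation of the groups is widest for ITGA2.

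In the untreated cells the tested alpha subunits among the members ranked, by mean FPKM, ITGA3 (135), ITGA5 (59.4), ITGA6 (35.5), ITGA2 (21.5), ITGAV (17.6), ITGA1 (0.596), ITGA10 (0.257) and ITGA7 (0.245). The ranges of neighbours in this order did not overlap, except those of ITGA10 and ITGA7. The tested beta subunits among the members ranked ITGB1 (148), ITGB5 (54.0), ITGB4 (8.51), ITGB3 (2.68) and ITGB8 (0.165), and no ranges of neighbours overlapped. Outside the members, ITGAE (3.17 FPKM), ITGA2B (0.455) and the beta subunit ITGB2 (0.336) were also measured. Since FPKM is divided by transcript length, these levels can be compared between genes, within the limits of the gene models used and of the trend with GC content.

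The FPKM of the 12 alpha subunits among the members summed to 270 ± 19.2 (SD, n = 3) in PANC-1 and 224 ± 15.6 (SD, n = 3) in MA PANC-1. ITGA2 made up 8.76%, 7.66% and 7.60% of this sum in PANC-1 1, 2 and 3, and 4.94%, 3.22% and 2.61% in MA PANC-1 1, 2 and 3. The collagen-binding subunits together made up 8.33% ± 0.680 (SD, n = 3) and 3.82% ± 1.18 (SD, n = 3). The laminin-binding subunits made up 63.1% ± 1.76 and 65.9% ± 0.585, and ITGA5, ITGA8 and ITGAV together 28.5% ± 1.37 and 30.3% ± 1.03 (SD, n = 3 each, PANC-1 first). ITGA3 alone made up 49.9% ± 4.54 of the sum in PANC-1 and 52.7% ± 5.57 in MA PANC-1. The FPKM of the 7 beta subunits among the members summed to 214 ± 21.6 in PANC-1 and 166 ± 5.54 in MA PANC-1, of which ITGB1 made up 69.2% ± 2.98 and 63.7% ± 0.934, and ITGB5 25.4% ± 1.88 and 30.7% ± 0.522. The ratio of ITGA2 to ITGB1 FPKM was 14.04%, 17.3% and 12.8% in PANC-1 1, 2 and 3, and 11.1%, 6.94% and 5.04% in MA PANC-1 1, 2 and 3. These shares are descriptions without a test, and a share of mRNA is not a share of receptors on the cell.

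**Figure D4:**
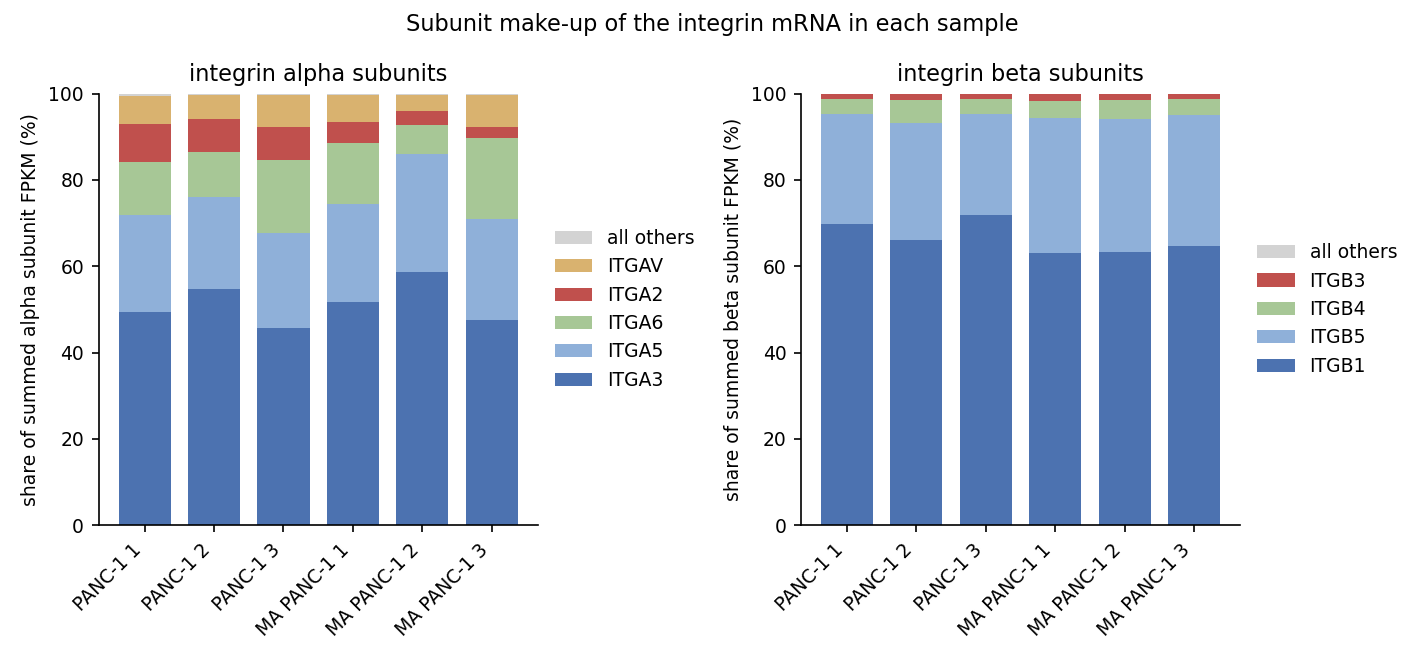
Share of each integrin subunit in the summed FPKM of the member alpha subunits (left) and member beta subunits (right) in each sample, in percent of the sum. The ITGA2 segment takes 7.60% to 8.76% in the untreated samples and 2.61% to 4.94% in the MA samples, and ITGB1 and ITGB5 together take most of every beta bar.

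In the focal adhesion core, FERMT1, or kindlin-1, the epithelial member of the kindlins that help talin to activate integrins, was lower after MA. It lies on chromosome 20 (ENSG00000101311, 6074845 to 6123544, minus strand). Its level was 2.80, 3.23 and 3.02 FPKM in PANC-1 1, 2 and 3, and 2.01, 2.10 and 1.897 FPKM in MA PANC-1 1, 2 and 3. The groups lay well apart and MA PANC-1 2 was among the other MA samples. The log2 fold change was -0.55 with a standard error of 0.14 (edgeR, unadjusted p = 0.00518, adjusted p = 0.388), and in DESeq2 the adjusted p was 0.0432. The unadjusted p stayed under 0.05 in all 19 alternatives, over which the adjusted p ran from 0.0432 to 0.729. FERMT2, or kindlin-2, the broadly expressed relative, had 5.55 FPKM in PANC-1 and 4.97 FPKM in MA PANC-1 on average. Its log2 fold change of -0.13 did not pass the test (edgeR, unadjusted p = 0.441).

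PARVA, alpha-parvin, which binds integrin-linked kinase and actin, was the member that was higher after MA. It lies on chromosome 11 (ENSG00000197702, 12377563 to 12530801, plus strand). Its level was 2.86, 2.69 and 2.79 FPKM in PANC-1 1, 2 and 3, and 3.38, 2.98 and 3.26 FPKM in MA PANC-1 1, 2 and 3. The groups did not overlap, and the nearest values were those of PANC-1 1 and MA PANC-1 2. The log2 fold change was 0.24 with a standard error of 0.10 (edgeR, unadjusted p = 0.0462, adjusted p = 0.441). The call was close to the threshold, and the unadjusted p was under 0.05 in 6 of 19 alternatives, among them the fit without MA PANC-1 2.

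The partners of PARVA in the complex with integrin-linked kinase did not pass the test. ILK itself had 71.5 ± 3.78 FPKM (SD, n = 3) in PANC-1 and 76.2 ± 4.44 FPKM (SD, n = 3) in MA PANC-1, and its log2 fold change was 0.13 (standard error 0.10), or 0.04 without MA PANC-1 2. LIMS1, or PINCH1, the third protein of the complex, had 2.21, 4.87 and 5.59 FPKM in PANC-1 1, 2 and 3 and 2.05, 3.35 and 4.73 FPKM in MA PANC-1 1, 2 and 3. It had the largest standard error among the tested members, 0.40 for a log2 fold change of -0.29, since replicates of the same group differed by more than the groups did. The values rose with the replicate number in both groups, and each MA sample lay below the untreated sample of its number. Under the replicate block the log2 fold change of LIMS1 was -0.26 (edgeR, unadjusted p = 0.0835).

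The talins, vinculin and the scaffold proteins did not pass the test with all samples. TLN1, the main talin, had a log2 fold change of 0.11 (standard error 0.15) at 51.6 FPKM in PANC-1, and TLN2 one of -0.14 (standard error 0.18) at 1.26 FPKM. VCL, vinculin, which reinforces the link from talin to actin, had 32.1, 32.5 and 29.8 FPKM in PANC-1 1, 2 and 3 and 29.8, 29.01 and 29.3 FPKM in MA PANC-1 1, 2 and 3. Its groups touched but did not overlap, and its log2 fold change was -0.06 (edgeR, unadjusted p = 0.459). The adaptors PXN (paxillin), ZYX (zyxin) and BCAR1 (p130Cas) had log2 fold changes of -0.07, -0.08 and 0.10, with standard errors of 0.11, 0.17 and 0.19. PTK2, the focal adhesion kinase, had 3.22 ± 0.168 FPKM (SD, n = 3) in PANC-1 and 2.92 ± 0.244 FPKM (SD, n = 3) in MA PANC-1, and its log2 fold change was -0.11 (standard error 0.10). Without MA PANC-1 2, ZYX had a log2 fold change of -0.29 (edgeR, unadjusted p = 0.0151), TLN1 one of -0.06, TLN2 -0.29, PXN -0.16 and BCAR1 -0.15, and of these 5 genes ZYX alone passed there. With the trend with GC content removed ZYX had -0.20 (edgeR, unadjusted p = 0.127), and it passed in 1 of 19 alternatives.

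TNS3, tensin-3, which links the beta tail to actin, had 15.4, 15.6 and 16.6 FPKM in PANC-1 1, 2 and 3 and 12.3, 14.3 and 12.6 FPKM in MA PANC-1 1, 2 and 3. The groups did not overlap, MA PANC-1 2 was the nearest MA sample to the untreated ones, and the log2 fold change of -0.24 missed the threshold (edgeR, unadjusted p = 0.0646). TNS3 passed in 7 of 19 alternatives, among them the fit without MA PANC-1 2 (-0.35, edgeR, unadjusted p = 0.00192), the fit with the trend with GC content removed (-0.28, edgeR, unadjusted p = 0.0177) and limma on log2(FPKM + 0.1) (-0.28, unadjusted p = 0.0248). TNS1 was between 0.0206 and 0.0529 FPKM and was not tested. CD151, a tetraspanin that associates with laminin-binding integrins, had 94.1 ± 2.28 FPKM (SD, n = 3) in PANC-1 and 99.8 ± 8.67 FPKM (SD, n = 3) in MA PANC-1, and its log2 fold change was 0.13 (standard error 0.11), which became 0.0088 without MA PANC-1 2 and 0.02 with the trend with GC content removed. Its annotation overlaps that of POLR2L, an RNA polymerase subunit on the opposite strand, at a mean of 260 FPKM. Likewise expressed genes overlap ILK, ITGA7, ITGB4, PXN and VCL on the opposite strand (TAF10, BLOC1S1, GALK1, PXN-AS1 and AP3M1), and how such reads were shared is not given.

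**Figure D5:**
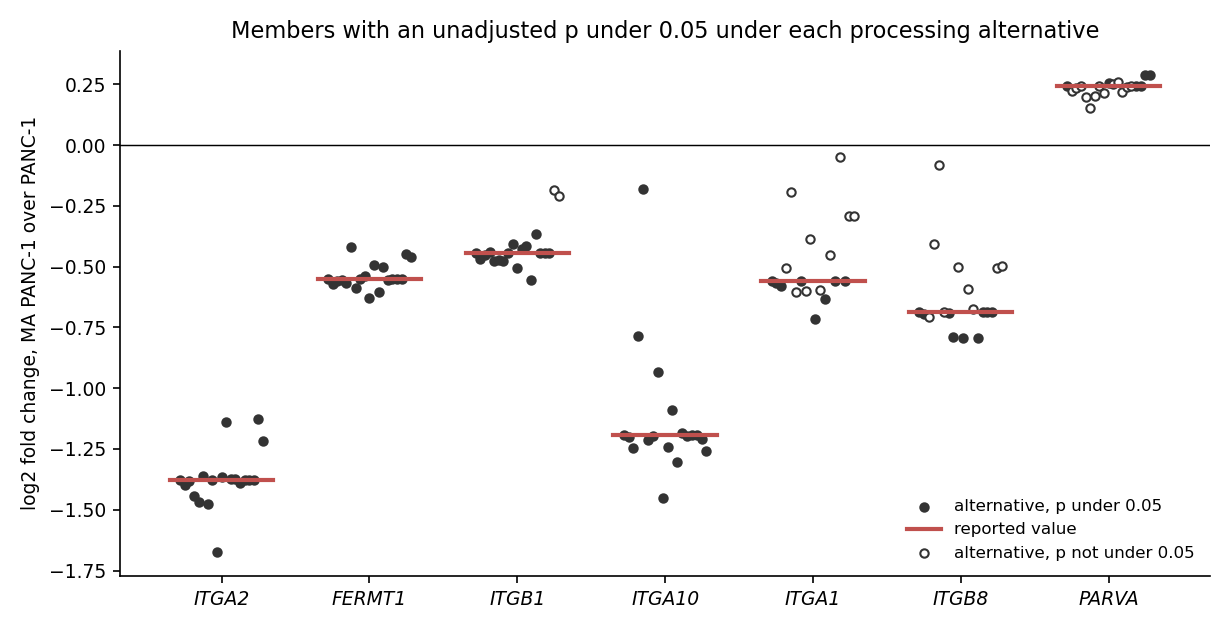
Log2 fold change of the 7 members with an unadjusted p under 0.05 (red line) and its value under each processing alternative (points, filled where p stayed under 0.05). All points of ITGA2, FERMT1 and ITGA10 are filled, ITGB1 has 2 open points, and ITGA1, ITGB8 and PARVA have more.

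Around the members, the genes of related lists were counted at the same unadjusted p, against the 5.86% lower and 5.37% higher of all genes. With the trend with GC content removed, 825 of all 17774 genes were lower and 1530 higher. Without MA PANC-1 2 these counts were 1032 and 802. Of 9 tested genes for laminin receptors and the hemidesmosome, 1 was lower, DST, which encodes the hemidesmosomal plakin BPAG1 and other cytoskeletal linkers (log2 fold change -0.90, standard error 0.17, edgeR, unadjusted p = 0.000909, adjusted p = 0.231), and 0 were higher. Its level was 1.63, 1.76 and 1.75 FPKM in PANC-1 1, 2 and 3 and 1.03, 0.641 and 1.04 FPKM in MA PANC-1 1, 2 and 3, without overlap. Of this list 2 genes were lower with the trend with GC content removed, DST and ITGB4, and without MA PANC-1 2 there were 3, with PLEC, the hemidesmosomal plakin plectin, at -0.27 (edgeR, unadjusted p = 0.0412). Of 6 tested receptors for RGD, 2 were lower (ITGB1 and ITGB8) and 0 higher, with a median log2 fold change of -0.33, and with the trend with GC content removed 0 were lower. Of 8 genes of the integrins of leukocytes and platelets, of which FERMT3 is a kindlin, 5 were tested, FERMT3 among them, and none was lower or higher in edgeR, with 1 lower (ITGAM) without MA PANC-1 2. The most abundant of them was ITGAE, at 2.74 to 3.81 FPKM.

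Among 26 tested matrix ligands, 3 were lower and 0 higher, with a median log2 fold change of -0.08. Among them were the laminin chain LAMB1 (log2 fold change -0.56, edgeR, unadjusted p = 0.000205, adjusted p = 0.152) and THBS1, the matricellular protein thrombospondin-1 (-0.35, unadjusted p = 0.00527). LAMB1 had 22.7 ± 0.312 FPKM (SD, n = 3) in PANC-1 and 15.1 ± 1.33 FPKM (SD, n = 3) in MA PANC-1. Among 15 tested tetraspanins and lateral partners, CD44, the hyaluronan receptor, and the tetraspanins CD82 and TSPAN1 were lower, with log2 fold changes of -0.35, -0.46 and -0.51. With the trend with GC content removed CD44 did not pass (-0.26, edgeR, unadjusted p = 0.104). With MA PANC-1 2 left out, 5 of these genes were lower, against 1032 of all 17774 genes. The tetraspanins CD63 (-0.33, edgeR, unadjusted p = 0.0124) and TSPAN4 (-0.31, edgeR, unadjusted p = 0.0298) were those added. The tetraspanin CD81 was higher, with 0.40 (edgeR, unadjusted p = 0.00757).

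Of 29 tested further adaptors, 5 were lower and 1 was higher, with a median log2 fold change of 0.03. AJUBA, a LIM protein of adhesions and cell junctions, was the higher one, with 16.2 ± 0.235 FPKM in PANC-1 and 21.8 ± 1.56 FPKM in MA PANC-1 (SD, n = 3 each). Its log2 fold change was 0.47 (standard error 0.08). LPP, a LIM protein related to zyxin, had -0.64 (standard error 0.11), ENAH, an actin regulator of the Ena/VASP family, -0.88 (standard error 0.28), and PDLIM7 -0.27 (standard error 0.09). The groups of ENAH overlapped, since PANC-1 3 had 2.15 FPKM and MA PANC-1 3 had 2.23 FPKM, and without MA PANC-1 2 it was -0.75 (edgeR, unadjusted p = 0.0613). Of 31 tested signalling genes, 4 were lower and 3 higher, with a median of -0.02. Those with the smallest p were ASAP1, an Arf GTPase-activating protein (-0.26), FYN, a Src family kinase (0.43), RAP1B, a small GTPase that activates integrins (-0.27), and RAPGEF1, an exchange factor for Rap1 (0.37). With the trend with GC content removed, 0 of the signalling genes were lower. Of 12 tested integrin inactivators and trafficking genes, 1 was lower, DAB2, an endocytic adaptor (-0.46, edgeR, unadjusted p = 0.0105), and 0 were higher. With the trend with GC content removed, DAB2 did not pass (edgeR, unadjusted p = 0.138), and 3 genes of this list were higher (RAB21, RAB11A and NUMB), so that the count turned from 1 lower and 0 higher to 0 lower and 3 higher. Over all 17774 genes the corresponding counts moved from 1041 lower and 954 higher to 825 lower and 1530 higher. When 1 sample was left out in turn, the number lower ran from 3 to 5 among the matrix ligands, 1 to 5 among the tetraspanins and partners, 1 to 6 among the further adaptors, 1 to 8 among the signalling genes and 1 to 3 among the inactivators and trafficking genes, while it ran from 621 to 1722 among all genes.

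In the pathway annotation deposited with the table, Focal adhesion held 146 tested genes, of which 19 were lower and 7 higher. These counts became 11 and 11 with the trend with GC content removed, where 825 of all 17774 genes were lower and 1530 higher. When PANC-1 1 was left out they were 11 and 5, against 627 and 551 of all genes. The number higher was 3 with MA PANC-1 1 left out (675 of all genes), 17 with MA PANC-1 3 left out (1491 of all genes) and 2 with PANC-1 3 left out (580 of all genes). Without the members described here it held 124 tested genes, of which 14 were lower and 6 higher, with a median log2 fold change of -0.0040. ECM-receptor interaction held 50 tested genes, of which 9 were lower and 0 higher, and 37 without the members, of which 4 were lower (LAMB1, THBS1 and CD44 among them) and 0 higher, with a median of -0.06.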

How the data were processed

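RNA of 6 PANC-1 samples, 3 with 40 μM MA and 3 untreated, was sequenced in paired reads of 150 bases. Per the submitters' processing notes the tools were cutadapt 1.9, HISAT2 2.0.4, StringTie 1.3.4d, edgeR and DESeq2; which annotation was used is not given in the sources used here. The table that the authors deposited gives FPKM values by gene and sample, with 0.0001 for most genes without reads, and an unnormalized estimated count, a whole number. The gene positions were compared with GENCODE release 29 on GRCh38: of 58552 shared identifiers, 47519 had the same position and 10949 others overlapped.

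The 17774 genes that reached a mean of 0.1 FPKM were tested with edgeR's quasi-likelihood test (edgeR 4.0.16, R 4.3.3) on the deposited estimated counts with TMM factors and no covariate, and p-values were adjusted by Benjamini-Hochberg over all of them. The standard error was the log2 fold change divided by the square root of the F statistic. The total of estimated counts is given per sample, and it exceeds the valid reads reported by the study. The spread between replicates sets the precision. Alternatives were DESeq2 1.42.0, limma 3.58.1 on log2(FPKM + 0.1), + 1 or + 0.01, RLE size factors, a stricter filter (mean FPKM of 1) or none beyond 1 count, halved counts, summing genes that overlap on a strand or share a name, the replicate block and leaving out each sample in turn. Chosen after seeing the data was removing a trend with GC content, a smooth curve (span 0.5) fitted in every library to genes averaging 100 counts or more. Per-sample values are given for members with an unadjusted p under 0.05, for the 3 most abundant alpha and beta subunits and, chosen after seeing the data, for ITGAV, LIMS1, VCL and TNS3. From each other list at most 4 genes with the smallest p under 0.05 are named, beside ITGAE, ITGAM, DDR2, PLEC, CD63, TSPAN4, ITGA2B, ITGB2, FERMT3, RAB21, RAB11A and NUMB, chosen after seeing the data. The members and lists were chosen with earlier results of these data known. RIAM, ICAP1, CYR61 and CTGF, older symbols in the lists, matched no name. Some genes that the naming rule would give are not reported here. The study's other assays were not analysed here.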

Additional observations from a re-analysis of the deposited data

How the results depend on the processing

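Of the counts over the members, the 2 down-regulated genes became 1 with a filter at a mean FPKM of 1, where ITGA10 is not tested, and 1 with limma on log2(FPKM + 0.1) or log2(FPKM + 1), and ranged from 1 to 2 when 1 sample was left out. The 1 member that was higher at the unadjusted p became 0 with either filter setting, under the replicate block, in all 3 limma fits, with halved counts and in DESeq2, and ranged from 0 to 1 when 1 sample was left out. The count of 6 members lower at the unadjusted p was 5 with the trend with GC content removed, against 825 of all 17774 genes. Of the 6, ITGA2, ITGA10 and FERMT1 passed there. Without MA PANC-1 2 the count was 8, against 1032 of all 17774 genes, and it ranged from 4 to 8 when 1 sample was left out. DESeq2 gave 2 members past the adjusted threshold. The labels do not say whether the replicate numbers pair the samples, and the main test did not use them. The deviations of same-numbered samples correlated weakly, at 0.0294, 0.0502 and 0.0724, but each MA sample correlated best with its own number. A shared structure by replicate number is therefore not excluded. Under the replicate block 7 members were lower and 0 higher, against 1237 and 978 of all 17774 genes, with ITGAV and ITGB4 passing and ITGB8 not. Over all genes the adjusted threshold was passed by 263 genes in DESeq2, 25 with the trend with GC content removed, 24 without MA PANC-1 2, 12 with the filter at a mean FPKM of 1, 4 without MA PANC-1 1, 3 without PANC-1 2 and 0 under the replicate block, against 7. With the trend with GC content removed together with the replicate block, 2 genes passed it. Removing the trend with GC content gave 825 genes lower and 1530 higher at the unadjusted p, against 1041 and 954, with a median log2 fold change of 0.06. It turned the sign of VCL (0.0093, and 0.0050 with the replicate block), FERMT2 (0.13 and 0.13), PTK2 (0.011 and 0.0071), BCAR1 (-0.029 and -0.048) and DDR1 (-0.048 and -0.0528). Leaving out 1 sample turned signs within these ranges: ITGA5 -0.25 to 0.040, ITGB5 -0.11 to 0.0014, TLN1 -0.060 to 0.22, ZYX -0.29 to 0.050, FERMT2 -0.23 to 0.017, BCAR1 -0.15 to 0.27 and DDR1 -0.058 to 0.10. The causes were not tested.

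Low levels limit ITGA10, ITGB8 and ITGA7, and the members below a mean FPKM of 0.1 were left out of the main test by its filter. With 3 samples a group, the exact test cannot go below 0.1.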
